A study of Mus musculus with 8 samples.

Results

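Lysosomal cathepsins and legumain are the proteases with which a macrophage digests what it has taken up. The 10 genes described here are Ctsa, Ctsb, Ctsc, Ctsd, Ctsh, Ctsk, Ctsl, Ctss, Ctsz and Lgmn. They were measured in peritoneal macrophages of mice that lack FURIN in myeloid cells and of their littermates, at rest and after LPS, the lipopolysaccharide of the bacterial outer membrane that is sensed by TLR4. Members were chosen by name, through the gene to which the identifier of each array probe leads, and not by their values. All 10 genes were found, on 12 probes, among 37018 genes and transcripts on the arrays. Each gene was read from its brightest probe, and all 10 passed the filter on dim genes, as did 36947 in all.

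KO denotes LysMCre-fur(fl/fl) mice, in which Cre recombinase made from the Lyz2 locus removes the floxed Furin gene in myeloid cells, and WT denotes their littermates. Both are on the C57BL/6 background. Adherent cells of the peritoneal cavity were left unstimulated or were given LPS at 1 μg/ml for 1, 4 or 24 h. KO and WT RNA of a time were labelled with different dyes and hybridised together on 1 of 8 arrays, with 2 arrays of separate biological replicates per time. KO RNA was in the red dye (Cy5) for replicate 1 and in the green dye (Cy3) for replicate 2, so a difference between replicates and one between dye orientations cannot be told apart. How many mice gave each RNA, and their age, is not given in the sources used here. Because whole cultures were measured, fewer cells of a type and less RNA per cell cannot be told apart.

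Most cathepsins are cysteine proteases of the papain family. Ctsd is an aspartic protease, Ctsa is a serine carboxypeptidase, and legumain cuts after asparagine. All are made as inactive precursors, carried to endosomes and lysosomes, and activated there at acid pH, in part by one another. In macrophages they degrade engulfed material and trim proteins and the invariant chain for presentation on MHC class II molecules. Many lysosomal genes carry near their start the E-box CACGTG, in the longer form known as the CLEAR element, which is bound by TFEB and its relatives TFE3 and MITF.

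The promoters that hold this motif are shown because the letters give a view of the members that the arrays do not. RefSeq sequences of GRCm38.p6, from 250 bases before to 50 bases after a gene's start, were available for 8 of the 10 members. CACGTG reads the same on both strands and was found in 4 of the 8, in Ctsa, Ctsd, Ctsl and Lgmn, and not in the windows of Ctsc, Ctsk, Ctss and Ctsz. The 8-letter form TCACGTGA, which contains it, was found in Ctsa and Ctsd. Of 32851 mouse promoters of this length, 7.15% held CACGTG and 0.974% held TCACGTGA. Counted by gene, as the members are, 8.09% and 1.12% of 27025 genes did. For Ctsa and Lgmn the match lies at only 1 of the 2 annotated starts. The stretches around the match nearest to the start run 5′ to 3′ on the strand of the gene, with CACGTG in capitals. They lie at chr2:164833721-164833785 (plus strand) for Ctsa, chr7:142387880-142387965 (minus strand) for Ctsd, chr13:64370711-64370770 (minus strand) for Ctsl and chr12:102439096-102439181 (minus strand) for Lgmn.
Ctsa: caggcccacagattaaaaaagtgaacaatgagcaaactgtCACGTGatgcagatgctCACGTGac
Ctsd: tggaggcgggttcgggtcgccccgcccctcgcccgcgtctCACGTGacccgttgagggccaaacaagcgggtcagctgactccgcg
Ctsl: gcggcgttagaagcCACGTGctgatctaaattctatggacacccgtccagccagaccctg
Lgmn: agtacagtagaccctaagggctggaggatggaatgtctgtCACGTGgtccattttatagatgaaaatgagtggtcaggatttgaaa
In Ctsa the motif begins 12 bases before the start and again 5 bases after it. In Ctsd it begins 98 bases before the start, with a further match 245 bases before it, in Ctsl 236 bases before, and in Lgmn 49 bases before.

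The arrays were of even quality, with 45.1 to 51.3% of gene spots well above background in Cy3 and 43.8 to 48.0% in Cy5. All 10 members were well above background in all 16 channels and none was saturated. Of the 7 macrophage markers measured, all were well above background in all 16 channels, and so were S100a8, Elane and Camp of the 6 neutrophil markers and Ear6 of the 4 eosinophil markers. Siglecf was so in 12 channels, and S100a9, Mpo, Ngp, Epx and Prg2 in none. All 9 genes chosen as a check of the LPS response rose at 4 and at 24 h in both genotypes. Furin itself was lower in KO than in WT at 0, 1 and 24 h, with log2 KO/WT ratios from -0.85 to -0.55 on those 6 arrays, but not at 4 h, where the ratios were 0.00 and 0.33. The 4 h samples are therefore written as the channels labelled KO, and where the Furin probe lies relative to the deleted part was not checked here. Lyz2, into which Cre was placed, was lower in KO on all 8 arrays, with ratios from -1.85 to -0.74.

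Most of the members were lower after 4 h of LPS than in unstimulated cells. Without the replicate number as a block, at 1 h no member passed the test in either genotype. At 4 h, 9 of 10 were lower in WT, and the same count was lower in the channels labelled KO. At 24 h, 7 were lower in WT and 8 in KO, and none rose at any time. Among the losses in WT were those of Lgmn at 24 h (4.84-fold), Ctsa at 24 h (3.61-fold) and Ctsd at 4 h (3.05-fold), whose order changed with the probe and with the arrays used. Ctsc, which activates granule serine proteases, passed the test at no time. With the block, Ctsc rose in WT at 1 h (0.37, adjusted p = 0.0379) and at 24 h (0.36, adjusted p = 0.0155), and Ctsh fell in WT at 1 h. The median change of the 10 members in WT was -0.92 at 4 h and -0.98 at 24 h on the log2 scale, -1.16 in the channels labelled KO at 4 h and -0.90 in KO at 24 h, beside a median over all genes and transcripts tested of about 0.00 at 4 h and -0.01 at 24 h. Of these, 19.3% were lower in WT at 4 h and 16.9% at 24 h, against 19.7% in the channels labelled KO at 4 h and 15.9% in KO at 24 h. At 1 h the share was 5.18% in WT and 4.46% in KO. The shares that were higher at 1, 4 and 24 h were 3.37%, 15.5% and 13.5% in WT and 3.09%, 16.3% and 12.8% in those labelled KO. The responses at 1, 4 and 24 h share the unstimulated channels. The 4 and 24 h arrays lay in the other row of the slide from the 0 and 1 h arrays, so a change from 0 h to 4 or 24 h and a difference between rows cannot be told apart. Unstimulated cells form a single group, with no unstimulated cultures to match each LPS time. Effects of LPS and of time in culture therefore cannot be told apart either.

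**Figure D1:**
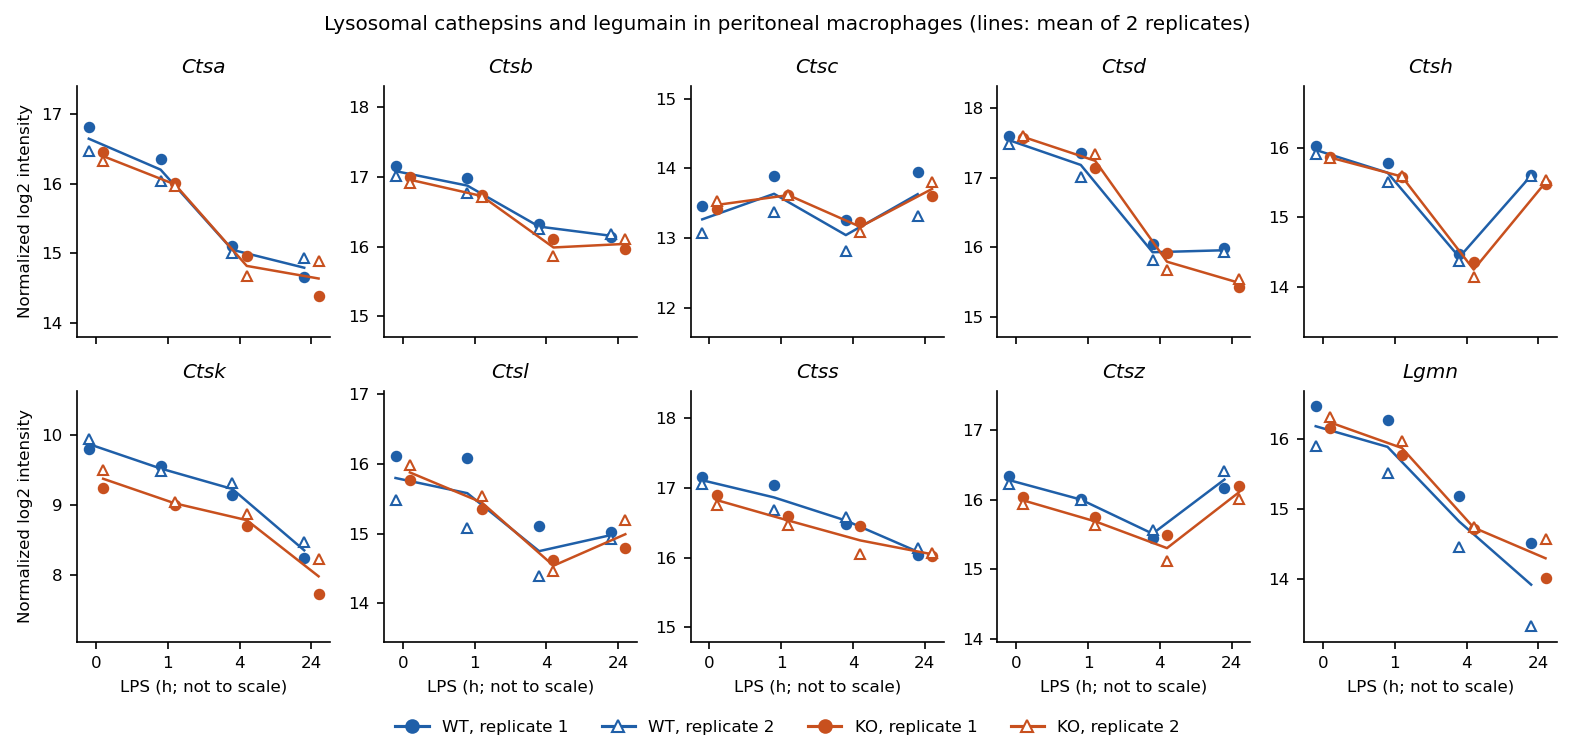
Normalized log2 intensity of each of the 10 genes (vertical axis, own scale per panel) against hours of LPS (horizontal axis, evenly spaced), with 1 point per channel and a line through the mean of the 2 replicates for WT and for KO. Ctsa, Ctsb, Ctsd, Ctsk, Ctss and Lgmn end well below their unstimulated levels, and Ctsh and Ctsz dip at 4 h and return. The means of Ctsc change least over time and are lowest at 4 h, while its WT replicates stand apart. At 4 h, KO stands for the channels labelled so.

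Levels below are normalized log2 intensities of 1 probe, replicate 1 first, and are set side by side within a gene only. The scale is logarithmic, so 1 unit is a factor of 2.

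Ctsd, the main aspartic protease of the lysosome, read 17.60 and 17.48 in unstimulated WT cells, 17.36 and 17.01 at 1 h, 16.04 and 15.81 at 4 h, then 15.99 and 15.93 at 24 h. In KO cells it read 17.57 and 17.60, then 17.14 and 17.34, 15.91 and 15.67 in the channels labelled KO at 4 h, and 15.44 and 15.55. In both genotypes every 4 and 24 h channel lay below every 0 and 1 h channel. The change in WT was -1.61 at 4 h (SE 0.13, adjusted p = 3.09e-07) and -1.58 at 24 h (adjusted p = 6.05e-07), and it was -1.79 in the channels labelled KO at 4 h (adjusted p = 1.12e-07) and -2.09 in KO at 24 h (adjusted p = 4.35e-08). The less bright second probe of Ctsd gave -2.19 and -2.37 in WT, so the size of the fall depended on the probe and its direction did not. At rest, WT replicate 1 and KO replicate 2 held the very same value, which normalization between arrays gives to spots of equal rank. Whether this narrowed the fall was not tested. Under other ways of processing the WT change lay within -1.90 to -1.61 at 4 h and -1.98 to -1.37 at 24 h.

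Ctsa, the carboxypeptidase that also protects β-galactosidase and neuraminidase in a lysosomal complex, read 16.82 and 16.47 in WT at rest, 16.36 and 16.04 at 1 h, 15.10 and 15.0003 at 4 h, then 14.66 and 14.93 at 24 h. The channels labelled KO read 16.46 and 16.33, 16.01 and 15.97, 14.96 and 14.68, and 14.39 and 14.89. Each WT time point lay below the one before it with no overlap, and in those labelled KO only the 4 and 24 h channels overlapped. The gene fell by 1.60 in WT at 4 h (SE 0.17, adjusted p = 4.13e-06) and by 1.85 at 24 h (adjusted p = 1.54e-06), and its change was -1.58 in the channels labelled KO at 4 h (adjusted p = 4.78e-06) and -1.76 in KO at 24 h (adjusted p = 2.73e-06). Its dimmer second probe, well above background in 15 of 16 channels, gave -1.76 and -2.34 in WT.

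Lgmn, the asparaginyl endopeptidase that helps to mature cathepsins, read 16.48 and 15.90 in WT at rest, 16.27 and 15.51 at 1 h, 15.19 and 14.45 at 4 h, then 14.51 and 13.31 at 24 h. The channels labelled KO read 16.17 and 16.32, 15.77 and 15.98, 14.72 and 14.75, and 14.01 and 14.57. In WT replicate 1 stood well above replicate 2 at every time, and the KO replicates were closer. Even so, no 4 or 24 h channel reached an unstimulated one. The change was -1.37 in WT at 4 h (SE 0.37, adjusted p = 0.00985) and -2.28 at 24 h (adjusted p = 0.000277), -1.51 in the channels labelled KO at 4 h (adjusted p = 0.00506) and -1.95 in KO at 24 h (adjusted p = 0.00103). At 4 h in WT the call was lost without unstimulated replicate 1 or without LPS 4 h replicate 2, at -1.002 without the latter. Over all arrays left out in turn, the change lay within -1.74 to -1.002. At 24 h the call held whichever array was left out, at -2.88 without LPS 24 h replicate 1 and -1.67 without LPS 24 h replicate 2.

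Ctsl, a broad cysteine endopeptidase, read 16.11 and 15.49 in WT at rest, 16.08 and 15.08 at 1 h, 15.11 and 14.39 at 4 h, then 15.03 and 14.93 at 24 h. Those labelled KO read 15.77 and 15.99, 15.36 and 15.54, 14.61 and 14.46, and 14.79 and 15.19. Its WT replicates stood apart at 0, 1 and 4 h, and its 4 and 24 h channels nevertheless lay below the unstimulated ones in both genotypes. It fell by 1.05 in WT at 4 h (SE 0.30, adjusted p = 0.0137) and by 1.34 in the channels labelled KO at 4 h (adjusted p = 0.00264), whereas the 24 h change of -0.82 in WT did not pass (adjusted p = 0.0561) and that of -0.89 in KO did (adjusted p = 0.0407). With the replicate number as a block the 24 h change in WT passed as well (adjusted p = 0.00135). The 4 h call in WT was lost without unstimulated replicate 1 or LPS 4 h replicate 2 (-0.69 without the latter, highest adjusted p 0.188), and the 24 h call in KO without any 1 of the 4 arrays it compares (highest adjusted p 0.279) or when normalized within but not between arrays (-0.49, adjusted p = 0.357).

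Ctsb, an endopeptidase that can also remove dipeptides from the carboxyl end, read 17.15 and 17.02 in WT at rest, 16.98 and 16.77 at 1 h, 16.33 and 16.25 at 4 h, then 16.14 and 16.18 at 24 h. Those labelled KO read 17.005 and 16.92, 16.73 and 16.72, 16.11 and 15.86, and 15.97 and 16.11. The replicates were close, and the LPS levels from 4 h on lay below all earlier ones. Ctsb fell by 0.80 in WT at 4 h (SE 0.11, adjusted p = 3.92e-05) and 0.93 at 24 h (adjusted p = 1.35e-05), which is 1.74-fold and 1.90-fold, by 0.97 in the channels labelled KO at 4 h (adjusted p = 5.95e-06) and by 0.92 in KO at 24 h (adjusted p = 1.57e-05).

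Ctss, which cuts the invariant chain and stays active at neutral pH, read 17.16 and 17.06 in WT at rest, 17.04 and 16.69 at 1 h, 16.48 and 16.58 at 4 h, then 16.03 and 16.14 at 24 h. The channels labelled KO read 16.89 and 16.76, 16.59 and 16.47, 16.45 and 16.05, and 16.02 and 16.07. The WT levels stepped down from time to time, and in those labelled KO the 4 and 24 h channels overlapped. The fall in WT was 1.49-fold at 4 h (log2 change -0.58, SE 0.14, adjusted p = 0.00455) and 2.04-fold at 24 h (-1.03, adjusted p = 5.53e-05), and the changes were -0.58 in the channels labelled KO at 4 h (adjusted p = 0.00437) and -0.78 in KO at 24 h (adjusted p = 0.000632). The call for the channels labelled KO at 4 h was lost without unstimulated replicate 1 or LPS 4 h replicate 2 (-0.38 without the latter, highest adjusted p 0.0706). Normalized within but not between arrays, neither that change (-0.47, adjusted p = 0.0603) nor the one in KO at 24 h (-0.48, adjusted p = 0.0715) passed.

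Ctsk, a collagen-degrading protease best known from osteoclasts, read 9.80 and 9.95 in WT at rest, 9.57 and 9.49 at 1 h, 9.14 and 9.32 at 4 h, then 8.24 and 8.46 at 24 h. In the channels labelled KO it read 9.25 and 9.51, 9.003 and 9.05, 8.70 and 8.87, and 7.73 and 8.23. Its levels went down from each time point to the next without overlap in either genotype. The change grew from -0.65 at 4 h (SE 0.15, adjusted p = 0.00345) to -1.53 at 24 h (adjusted p = 2.70e-06) in WT, and was -0.59 in the channels labelled KO at 4 h (adjusted p = 0.00593) and -1.40 in KO at 24 h (adjusted p = 6.45e-06). Normalized within but not between arrays, the 4 h changes were -1.10 in WT and -1.07 in the channels labelled KO. The latter's 4 h call was lost without unstimulated replicate 2 or LPS 4 h replicate 1 (highest adjusted p 0.086).

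Ctsh, an aminopeptidase, and Ctsz, a carboxypeptidase also called cathepsin X, dipped and came back. Ctsh read 16.03 and 15.91 in WT at rest, 15.78 and 15.51 at 1 h, 14.48 and 14.38 at 4 h, then 15.61 and 15.60 at 24 h. Those labelled KO read 15.86 and 15.86, 15.58 and 15.60, 14.35 and 14.15, and 15.47 and 15.53. The 4 h channels were the lowest in both genotypes, with no overlap. The fall at 4 h was 2.91-fold in WT (log2 change -1.54, SE 0.11, adjusted p = 5.57e-08) and 3.05-fold in the channels labelled KO (-1.61, adjusted p = 3.76e-08). By 24 h the change from rest was -0.37 in WT (adjusted p = 0.0172) and -0.36 in KO (adjusted p = 0.0208), and it was 0.0368 and 0.0198 when the arrays were normalized within but not between arrays (adjusted p = 0.918 and 0.958). The 24 h call was also lost without unstimulated replicate 1 or without either 24 h array in WT, and without any 1 of the 4 arrays in KO (highest adjusted p 0.149 and 0.137).

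Ctsz read 16.34 and 16.23 in WT at rest, 16.01 and 15.995 at 1 h, 15.46 and 15.57 at 4 h, then 16.17 and 16.41 at 24 h. The channels labelled KO read 16.03 and 15.94, 15.75 and 15.63, 15.50 and 15.11, and 16.20 and 16.01. At 24 h the WT channels stood on both sides of the unstimulated range. Ctsz fell by 0.77 in WT at 4 h (SE 0.13, adjusted p = 0.00032) and by 0.69 in the channels labelled KO (adjusted p = 0.000833), and at 24 h it stood 0.01 from rest in WT (adjusted p = 0.982) and 0.11 in KO (adjusted p = 0.628).

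Ctsc, the dipeptidyl peptidase, read 13.47 and 13.07 in WT at rest, 13.89 and 13.38 at 1 h, 13.27 and 12.82 at 4 h, then 13.95 and 13.31 at 24 h. The channels labelled KO read 13.41 and 13.54, 13.62 and 13.61, 13.23 and 13.09, and 13.61 and 13.80. All WT times overlapped with rest, and replicate 1 lay above replicate 2 each time. The change was -0.23 at 4 h (SE 0.22, adjusted p = 0.523) and 0.36 at 24 h (adjusted p = 0.281) in WT, -0.31 in the channels labelled KO at 4 h (adjusted p = 0.334) and 0.23 in KO at 24 h (adjusted p = 0.542). With the replicate number as a block, Ctsc passed in WT at 1 h (0.37, adjusted p = 0.0379) and at 24 h (adjusted p = 0.0155), and in the channels labelled KO at 4 h (adjusted p = 0.0291). Ctsh passed in WT at 1 h in that fit as well (-0.33, adjusted p = 0.0479). Of all features in that fit, 4.63% were higher and 7.32% lower in WT at 1 h, 15.3% and 19.3% at 24 h, and 21.8% lower in the channels labelled KO at 4 h.

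**Figure D2:**
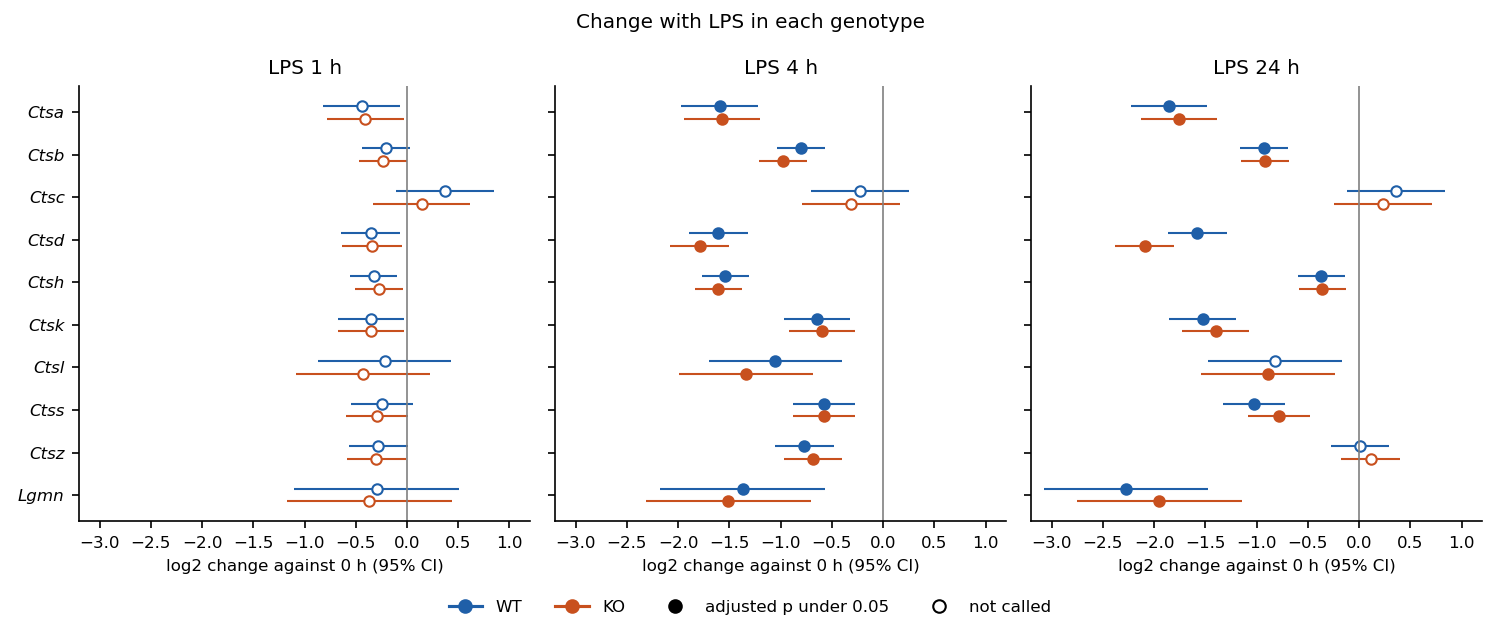
Log2 change against unstimulated cells (horizontal axis) for the 10 genes at 1, 4 and 24 h of LPS in WT and in KO, with 95% confidence intervals from the separate-channel fit (2 channels per group), filled where the adjusted p was under 0.05. At 4 h, KO stands for the channels labelled so. Ctsh and Ctsz lie closer to 0 at 24 h than at 4 h, whereas Ctsk and Lgmn are lowest at 24 h.

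The comparison of 24 h with 4 h, whose arrays shared a row of the slide, needs no unstimulated channel. In WT, Ctsh rose 2.26-fold (log2 change 1.17, adjusted p = 1.48e-06) and Ctsz 1.71-fold (0.78, adjusted p = 0.000403), while Ctsk fell by 0.88 (adjusted p = 0.000404) and Ctss by 0.45 (adjusted p = 0.026). In the channels labelled KO, Ctsh rose 2.38-fold (1.25, adjusted p = 7.79e-07), Ctsz rose 1.74-fold (0.80, adjusted p = 0.000305) and Ctsk fell by 0.81 (adjusted p = 0.000787). The other members did not pass, among them Lgmn in WT at -0.90. Normalized within but not between arrays, Ctsk did not pass in WT (-0.39, adjusted p = 0.119) or in the channels labelled KO (-0.35, adjusted p = 0.171), nor did Ctss in WT (-0.16, adjusted p = 0.685). The Ctss call was also lost without LPS 4 h replicate 2 or either 24 h array (highest adjusted p 0.165). Over all genes and transcripts, 15.1% were higher and 14.6% lower in WT, and 15.7% and 15.1% in those labelled KO. With the replicate number as a block, Ctsc (0.59, adjusted p = 0.00053) and Lgmn (adjusted p = 0.000442) passed too in WT, and Ctsc (0.54, adjusted p = 0.000943), Ctsl (0.45, adjusted p = 0.0498) and Lgmn (-0.44, adjusted p = 0.0457) in the channels labelled KO. In that fit 17.4% of features were lower and 17.3% higher in WT, and 17.8% and 17.7% in those labelled KO.

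From 1 to 4 h, 6 members fell in WT and 7 in the channels labelled KO, against 15.6% and 16.8% of all genes and transcripts that were lower. The 4 and 1 h arrays lay in different rows. These counts depended on single arrays: they ran from 4 to 8 in WT and from 4 to 7 in those labelled KO when 1 array was left out, and the latter count was 4 without LPS 1 h replicate 2 or without LPS 4 h replicate 2. At 1 h against rest, both WT channels of 7 members lay below both unstimulated channels, and so did both KO channels of 9, where 26.1% of all features in WT and 27.8% in KO did so. None of these early differences passed the test (limma's separate-channel fit, with 4 members in WT and 5 in KO at an unadjusted p under 0.05), and they ranged from -0.44 to 0.37 in WT and from -0.43 to 0.14 in KO. At 4 h, both WT channels of 9 members and both channels labelled KO of all 10 lay below both unstimulated ones (32% and 31.3% of all features), and at 24 h those of 8 members in each genotype (32.6% and 31.6%). With the replicate number as a block, Ctsc (-0.59, adjusted p = 0.00048) and Ctsl (-0.83, adjusted p = 0.0012) also fell from 1 to 4 h in WT. Ctsc did in the channels labelled KO (-0.45, adjusted p = 0.00347). In that fit 6591 of 36927 features were lower in WT and 6946 in those labelled KO.

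The loss of FURIN in myeloid cells was set against WT on the same arrays. The question was whether the protease genes stood at another level without FURIN. The answer depended on the fit and on single arrays. Over the time points, 1 member, Ctsk, passed without the replicate number as a block. With the block Ctsa, Ctsb, Ctss and Ctsz passed as well. Ctsk was lower in KO on all 8 arrays, its log2 ratios of KO to WT being -0.55 and -0.45 at rest, -0.56 and -0.44 at 1 h, -0.44 and -0.46 in the channels labelled KO at 4 h, then -0.51 and -0.24 at 24 h. The ratios lay close together from time to time, and the smallest was that of replicate 2 at 24 h. The mean over the time points was -0.46 (SE 0.05, 95% interval -0.57 to -0.34, n = 8 arrays of 2 replicate numbers), 1.37-fold lower in KO. It passed the test in limma over all features (adjusted p = 0.0153), where 0.322% of features were lower and 0.241% higher in KO. The fit takes the 8 arrays as independent, although replicate differences in the ratios correlated across genes between times, at 0.475 to 0.679. Its interval and p, with the replicate block too, therefore do not measure the spread between mice. The call was lost without unstimulated replicate 1 or 2, LPS 1 h replicate 2, or LPS 4 h replicate 1 or 2, with means from -0.47 to -0.44. Over all 8 arrays left out in turn, the mean lay within -0.49 to -0.42. Without both 4 h arrays, on which Furin was not lower in the channels labelled KO, the mean of the other time points was -0.46 and did not pass (adjusted p = 0.0666), with 0.0433% of all features lower and 0.0568% higher then. With the replicate number as a block it did (adjusted p = 0.00168), beside 2.44% of all features that were lower.

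Ctsa, Ctsb and Ctss also lay below WT on all 8 arrays, as did 1.52% of all features. Their means were -0.21 (adjusted p = 0.174), -0.17 (adjusted p = 0.188) and -0.23 (adjusted p = 0.174), and that of Ctsz, which was below WT on 6 arrays, was -0.25 (adjusted p = 0.194). With the replicate number as a block these 4 passed beside Ctsk, with adjusted p of 0.0298 for Ctsa, 0.0492 for Ctsb, 0.0362 for Ctss and 0.0187 for Ctsz, and then 3.22% of features were lower and 2.79% higher. Without the 4 h arrays Ctsb no longer passed in that fit (adjusted p = 0.184). The mean of Ctsa was -0.12 with all its probes averaged (adjusted p = 0.370). Its dimmer second probe gave ratios from -0.27 to 0.15, with a mean of -0.03, so only the brightest lay below WT on all 8 arrays. The mean of Ctsh was -0.11 (adjusted p = 0.493) and that of Ctsd -0.12 (adjusted p = 0.590), neither past the threshold in either fit. With all probes averaged that of Ctsd was -0.19, and it was -0.06 without LPS 1 h replicate 1 and -0.19 without LPS 1 h replicate 2.

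The ratios of Ctsc, Ctsl and Lgmn split by replicate. Each lay below WT on all 4 replicate 1 arrays, where KO RNA was in Cy5, and above it on all 4 replicate 2 arrays, where it was in Cy3. The Lgmn ratios were -0.50 to -0.31 in replicate 1 and 0.30 to 1.26 in replicate 2, those of Ctsl -0.72 to -0.24 and 0.08 to 0.50, and those of Ctsc -0.34 to -0.03 and 0.23 to 0.49. Of all features, 2.97% had this pattern. Their means were 0.08 for Lgmn, -0.06 for Ctsl and 0.10 for Ctsc (adjusted p = 0.970, 0.970 and 0.887), and their signs changed with the array left out, within -0.14 to 0.30, -0.21 to 0.08 and -0.01 to 0.20.

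**Figure D3:**
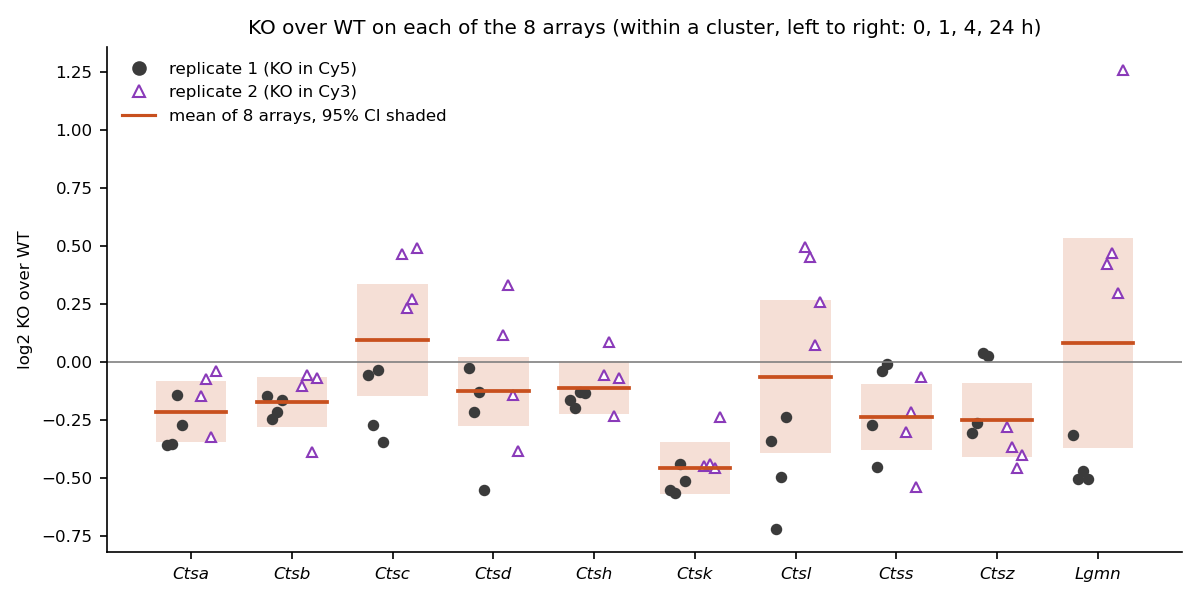
Log2 KO/WT ratio (vertical axis) of the 10 genes on each of the 8 arrays, ordered 0, 1, 4 and 24 h within each replicate, with a symbol per replicate, a bar for the mean of the 8 arrays and its 95% interval shaded. Ctsk lies below 0 on every array, and Lgmn, Ctsl and Ctsc split by replicate, which is also the dye orientation.

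At single time points no member passed, and few features did: none at 0 and 1 h, 0.00812% at 4 h and 0.0244% at 24 h. By limma's ratio fit 1, 2, 2 and 2 members had an unadjusted p under 0.05 at 0, 1, 4 and 24 h, and by the methods' t-test 0, 2, 0 and 1. The Ctsk difference was -0.50 at rest (adjusted p = 0.217), -0.50 at 1 h (0.449), -0.45 in the channels labelled KO at 4 h (0.459) and -0.37 at 24 h (0.655). It passed at rest and at 1 h with the replicate number as a block (adjusted p = 0.0252 and 0.0368), where 0.587% and 0.303% of features were lower. Ctsd stood 0.47 lower in KO at 24 h on the log2 scale (-0.47, 95% interval -0.76 to -0.17, adjusted p = 0.759).

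No member passed the test of a difference in the response to LPS between KO and WT by limma, with or without the replicate number as a block. Without the block no feature at all did (0%), and with it 0 did at 1 h, 5 were lower and 8 higher at 4 h, and 46 were lower and 32 higher at 24 h. At an unadjusted p under 0.05 there were 0 members at 1 h, 0 at 4 h and 1, Ctsd, at 24 h. For Ctsd at 24 h the KO response minus the WT response was -0.51 (95% interval -0.93 to -0.09, not adjusted), for Ctss 0.25 (-0.16 to 0.65), for Ctsk 0.13 (-0.19 to 0.44) and for Lgmn 0.32 (-0.95 to 1.60). The interval of Lgmn was the widest of these 4.

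Acp5, which like Ctsk is abundant in osteoclasts, was the only gene of a 6-gene osteoclast list without Ctsk that was lower in KO over the time points (-0.41, adjusted p = 0.0219), a call lost whenever 1 array other than LPS 24 h replicate 1 was left out (-0.44 to -0.37). Among the other lists, and named after their values were seen, Atp6v0d2 (-0.55, adjusted p = 0.0183), Lipa (-0.48, adjusted p = 0.0265), Atp13a2 (-0.42, adjusted p = 0.0365) and Csf1r (-0.41, adjusted p = 0.0183) were also lower in KO, each no longer past the threshold with 5 or more of the 8 arrays left out 1 at a time. In WT, Acp5 rose at 4 h by 1.13 (adjusted p = 0.000309) while Ctsk fell. The summed level of that list ran from 25717 to 71849 intensity units in WT and from 17268 to 48659 in KO and was lower in KO on 7 of 8 arrays, by -0.72 to 0.09 on the log2 scale. Calcr, a defining marker, was well above background in only 4 of 16 channels. The summed macrophage markers ran from 242696 to 729563 in WT and from 149779 to 480810 in KO, lower in KO on 7 of 8 arrays. They include Lyz2, into which Cre was placed and which was itself lower in KO on every array. This sum therefore does not measure macrophage content alone. The summed mast cell markers, in contrast, were lower in KO on 2 of 8 (1839 to 12959 in WT, 3800 to 22863 in KO). The summed B cell markers, all 5 well above background in all 16 channels, were likewise lower in KO on 2 of 8 (35590 to 84086 in WT, 27177 to 104844 in KO), and the dendritic cell markers on 1. The summed neutrophil markers were lower in KO on 6 of 8 (3816 to 60882 in WT, 3533 to 65736 in KO). The part of these cell types in the Ctsk difference was not tested. Of the 7 macrophage markers, 5 also fell with LPS in WT at 24 h, with a median of -2.03 over the list, and 5 of 6 mast cell markers fell with a median of -1.69, and their part in the changes of the cathepsins was not tested either.

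Most other genes of the lysosome were lower after LPS too. Of 11 other cathepsins and lysosomal peptidases measured, 8 fell in WT at 4 h and 8 at 24 h, with a median of -0.80 and -1.23 on the log2 scale. At 24 h the largest changes were those of Dpp7, a dipeptidyl peptidase (-3.10, SE 0.13, adjusted p = 7.75e-10), of Cpq, a carboxypeptidase (-2.72, SE 0.26, adjusted p = 1.78e-06), and of Tpp1, a tripeptidyl peptidase (-2.50, SE 0.19, adjusted p = 2.07e-07). In the channels labelled KO at 4 h 7 fell, and in KO at 24 h 8.

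Of 35 lysosomal glycosidases, lipases and sulfatases, 28 fell and 2 rose in WT at 4 h, and 26 fell and 2 rose at 24 h, with medians of -1.40 and -1.17. Lipa, the acid lipase that frees cholesterol from its esters, fell by 3.06 at 24 h (SE 0.12, adjusted p = 6.41e-10). Idua, an iduronidase, fell by 2.96 and Pla2g15, a phospholipase, by 2.71. Among 18 lysosomal membrane proteins 14 fell at both times, led at 24 h by Slc17a5, the sialic acid carrier (-3.14), Atp13a2, a polyamine-transporting ATPase (-2.89), and Ctns, the cystine carrier (-2.57). The vacuolar ATPase, the proton pump that keeps lysosomes acid and so the cathepsins active, had 17 subunits measured, of which 13 fell at 4 h and 15 at 24 h, when 1 rose. Its subunit gene Atp6v0d2 fell by 3.73 at 24 h, Atp6v0a1 by 1.46 and Atp6v1a by 1.21.

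Of 13 genes that sort enzymes to the lysosome, 10 fell and 1 rose at 4 h, and 6 fell and 2 rose at 24 h. Sort1, a sorting receptor that carries cathepsins among its cargo, fell by 4.90 at 24 h (SE 0.23, adjusted p = 2.06e-09) (-2.42 with all its probes averaged), Gga2 by 1.02 and Sorl1 by 1.01, the last not past the threshold without unstimulated replicate 2 (-0.75). The counts in the channels labelled KO at 4 h and in KO at 24 h were close, with 28 glycosidases, lipases and sulfatases lower at 4 h and 25 at 24 h, 14 and 13 membrane proteins, 13 and 15 subunits of the proton pump, and 10 and 7 sorting genes. Normalized within but not between arrays, the WT counts at 24 h were 8 instead of 15 for the proton pump and 3 instead of 6 for the sorting genes.

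**Figure D4:**
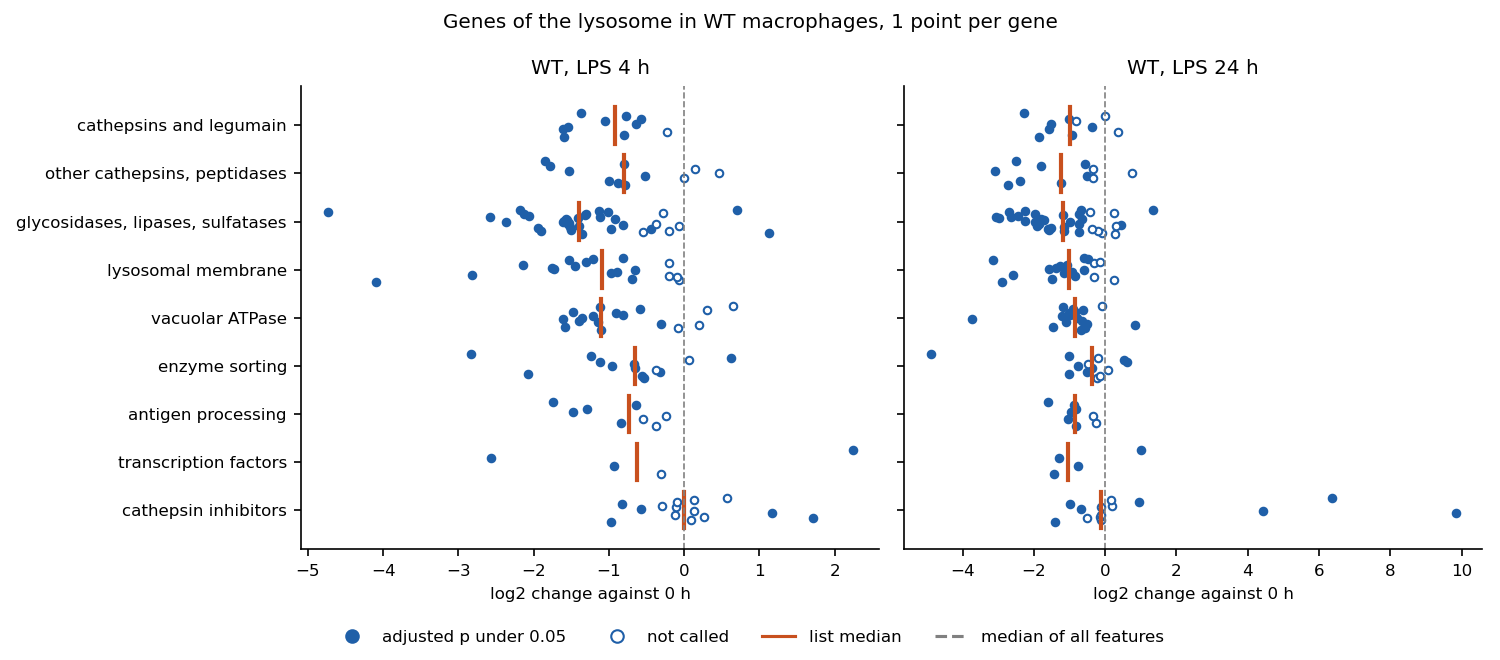
Log2 change with LPS in WT at 4 and 24 h (horizontal axes, of different range) for each gene of the lists, filled where the adjusted p was under 0.05, with a bar at the list median and a dashed line at the median of all features. List medians lie between -1.40 and -0.36 except in the cathepsin inhibitors, where they are near 0 and 3 genes reach above 4 at 24 h.

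Of the 4 transcription factors tied to lysosomal genes, Tfeb read 9.70 and 9.70 in WT at rest, 9.22 and 9.08 at 1 h, 6.94 and 7.32 at 4 h, then 8.47 and 8.33 at 24 h. It fell most at 4 h (-2.57, SE 0.12, adjusted p = 1.20e-09) and less at 24 h (-1.30, adjusted p = 1.31e-06). Tfe3 fell by 0.94 and 0.77 (adjusted p = 2.77e-06 and 2.58e-05), and Mitf fell by 1.44 at 24 h (adjusted p = 0.000608) with -0.30 at 4 h (adjusted p = 0.449). Tfec, a relative of these factors found in macrophages, rose by 2.24 and 0.99 (adjusted p = 2.49e-08 and 9.25e-05). In mean WT level Tfeb was lowest at 4 h, as were Ctsc, Ctsd, Ctsh, Ctsl and Ctsz, with Ctsd almost as low at 24 h. Ctsa, Ctsb, Ctsk, Ctss and Lgmn were lowest at 24 h. A part of Tfeb in these changes was not tested.

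The 4 members with CACGTG in the promoters printed above changed by -1.61 to -1.05 in WT at 4 h (median -1.48), and the 4 with a promoter entry and no match by -0.77 to -0.23. At 24 h the ranges overlapped, at -2.28 to -0.82 and -1.53 to 0.36. With 4 genes on each side this is a description, and the other lysosomal genes of the lists did not have it: 22 with the motif had a median of -1.11 at 4 h, with 72.7% called lower, and 50 without it had a median of -1.14, with 84% called lower. Over all named genes tested that have a promoter entry, 31.7% of 1550 with the motif and 24.3% of 14970 without it were lower at 4 h.

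Cathepsins act together with the antigen-presenting machinery and are held in check by cystatins. Of 8 antigen processing partners, 5 fell in WT at 4 h and 6 at 24 h, 8 in the channels labelled KO at 4 h and 7 in KO at 24 h, the 8 being 4 without unstimulated replicate 2 or LPS 4 h replicate 1. Ifi30, the lysosomal thiol reductase, fell by 1.60 at 24 h (adjusted p = 1.57e-06), and the MHC class II chain H2-Aa by 1.04 (adjusted p = 0.0039). Cd74, the invariant chain that Ctss cuts, fell by 0.82 (adjusted p = 0.00468, not past the threshold without LPS 24 h replicate 2, at -0.73), and H2-DMa, which helps to load peptides, by 0.95 (adjusted p = 6.23e-05). Normalized within but not between arrays, 2 of the 8 in WT and 4 in KO were called lower at 24 h, and neither Cd74 (-0.42) nor H2-Aa (-0.62) was in WT.

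The cystatins and other cathepsin inhibitors did not move one way, with 3 lower and 4 higher of 14 measured in WT at 24 h and a list median of -0.12. Normalized within but not between arrays, 1 was lower instead of 3. The 4 that rose are stefin A genes of the mouse cluster, cytosolic inhibitors of cysteine cathepsins, whose near-identical copies can share a probe, so which copy was measured is uncertain. Csta2 read 6.96 and 6.57 in WT at rest, 6.97 and 6.71 at 1 h, 8.67 and 7.21 at 4 h, then 16.78 and 16.42 at 24 h, with 16.53 and 16.60 in KO at 24 h. It was well above background in 15 of 16 channels, and it rose by 9.84 at 24 h in WT (SE 0.40, adjusted p = 6.85e-10). Stfa3 went from 6.79 and 7.05 to 13.81 and 12.78 (6.37, SE 0.27, adjusted p = 1.01e-09). Csta3 was well above background only at 24 h, in 4 of 16 channels, where it read 10.73 and 10.57 in WT and 10.75 and 10.45 in KO, and Stfa1 likewise in 4 of 16 channels. No inhibitor of the list differed between KO and WT over the time points.

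Across the 16 channels the members fell into a few patterns, given here as a description, since the channels share arrays, dyes and the LPS times. Pearson correlations were 0.988 between Ctsa and Ctsb, 0.975 between Ctsa and Ctsd and 0.972 between Ctsb and Ctsd. Ctsk went with Ctss (0.904), its neighbour on chromosome 3, and Ctsh with Ctsz (0.834), which share the return at 24 h. The value was 0.0110 between Ctsz and Lgmn, 0.0725 between Ctsc and Ctsa and -0.343 between Ctsc and Ctsk.

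**Figure D5:**
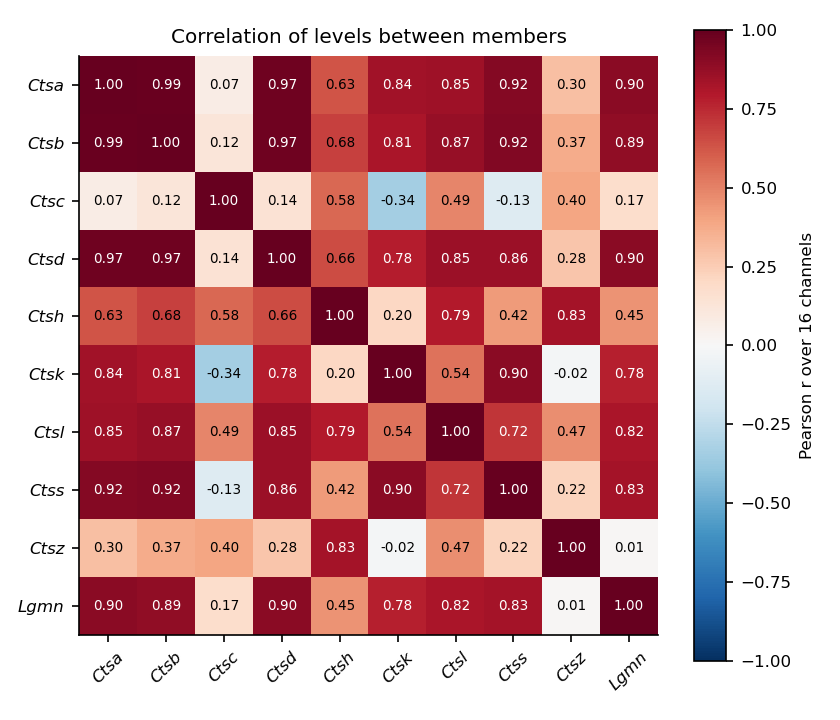
Pearson correlation of the normalized log2 levels over the 16 channels for each pair of the 10 genes (colour scale from -1 to 1). Ctsa, Ctsb and Ctsd form a tight group, Ctsh is most like Ctsz, and Ctsc is below 0.6 with every other gene.

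Among 11008 named genes that were well above background in every channel, the 2 most like each member were, by the same measure, Ctsb and Adssl1 for Ctsa (0.988 for both), Ctsa and Dtnbp1 for Ctsb (0.988 and 0.986), and Unc5a and Tmem37 for Ctsd (0.993 and 0.989). They were Dnajc4 and Rfng for Ctsh (0.992 for both), Dtd2 and Pitpnm1 for Ctsz (0.967 and 0.964), Cib2 and Smim13 for Ctsk (0.961 for both), and Glb1l and Cyba for Ctss (0.961 and 0.957). For Ctsl they were Grn, the lysosomal glycoprotein progranulin, and Bphl (0.962 and 0.947), for Lgmn Xdh and Zfp467 (0.981 and 0.979), and for Ctsc Selp and Uxs1 (0.898 and 0.881). Only Ctsa and Ctsb have another member among these nearest genes, and the likeness of Ctsc to its nearest gene was the lowest of the 10.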

How the data were processed

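Gene expression in peritoneal macrophages was measured on 8 Agilent 2-colour arrays (16 channels), read by the authors with Feature Extraction 10.7.3 per the labels. The deposited scanner files hold spot intensities without normalization between arrays, with the software's processed signals. The deposited matrix, log2 ratios of Cy5 to Cy3, served as an alternative. Median intensities and backgrounds, 1 per spot, were corrected by normexp (offset 50), normalized by loess within and quantile between arrays in limma 3.58.1 (R 4.3.3, statmod 1.5.0), and averaged per probe, without outlier-flagged spots. The brightest probe stood for a gene, and a mean log2 intensity of at least 6 was required.

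The log2 ratios of KO to WT on the 8 arrays entered lmFit and eBayes, with 1 coefficient per time point (4 residual degrees of freedom). LPS changes came from the separate-channel fit (within-spot correlation 0.0971, from 5000 genes). Adjustment was Benjamini-Hochberg over 36947 ratios or 36927 channel fits, with a threshold of 0.05, and the scripts were tested on simulated data. The number of arrays limits the precision. The study's design compares KO with WT, and its methods use a t-test, tried as an alternative.

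Replicate numbers 1 and 2 occur at all times and pair the arrays: differences between replicates 1 and 2 correlated across genes between time points, at 0.475 to 0.679 for ratios, 0.339 to 0.565 for WT and 0.214 to 0.336 for KO levels, over 6 pairs of times each. Genes are not independent there. The replicate block is also a dye term. Times came from the titles, since the growth protocol gives 4 h throughout.

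The 10 members, the other lists and the tests were chosen with earlier results of these data known. Named beside the members are, per list, up to 3 called genes with the largest change in WT at 24 h (any gene of lists of up to 8), Furin, Lyz2, and the 2 genes most like each member. Acp5, named for its KO difference, is from the 6-gene osteoclast list. Cd68, Ighm, Trac and Ly6g were not analysed here. Array annotation and reference table use different builds, so positions are given for RefSeq promoters only.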

Additional observations from a re-analysis of the deposited data

How the results depend on the processing

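The 54 member results past the threshold were recomputed under 9 alternatives: 44 kept direction and call under all of them that apply, 40 whenever any 1 array was left out, and 2 reversed. With loess alone, without quantile normalization, Ctsh at 24 h reversed to 0.0368 in WT and 0.0198 in KO, Ctss lost its call in KO at 24 h and in the channels labelled KO at 4 h (-0.48 and -0.47, adjusted p = 0.0715 and 0.0603) as did Ctsl in KO at 24 h (-0.49, adjusted p = 0.357), 5 members instead of 8 were lower in KO at 24 h, and 5 calls of 4 against 1 h or 24 against 4 h were lost. With the mean over all probes, Ctsl in KO at 24 h (adjusted p = 0.051) and Lgmn in WT at 4 against 1 h lost their calls. With it 1 member passed in WT at 1 h, as 1 did with Aquantile scaling. Aquantile scaling also lost 3 calls, those of Lgmn in WT at 4 against 1 h, Ctss in WT at 24 against 4 h, and Ctsz in the channels labelled KO at 4 against 1 h. The cause was not tested. With the replicate block, 1 member passed for KO against WT at 0 h, 1 at 1 h and 5 over the time points, 2 in WT at 1 h, and 6 in the channels labelled KO at 24 against 4 h, and no member call was lost under it. Counts with 1 array left out ran from 0 to 1 for KO against WT over the time points, 7 to 9 and 6 to 8 for WT at 4 and 24 h, 8 to 9 for the channels labelled KO at 4 h, 6 to 8 for KO at 24 h, 4 to 8 and 4 to 7 for 4 against 1 h in WT and in those labelled KO, and 3 to 5 and 3 for 24 against 4 h. Of 32 counts of the other lists, 23 stayed within 1.5 times throughout, and of their 175 gene results 144 kept their call throughout. The median of all features at 24 h, -0.01 in both genotypes, was -0.12 in WT and -0.11 in KO with processed signals, and loess alone put that of 4 against 1 h at -0.16. Without the 4 h arrays, an alternative chosen after seeing the data, 0 members passed for KO against WT over the other time points, and with the replicate block 4 did (Ctsk, Ctsz, Ctsa and Ctss), beside 2.44% of all features that were lower.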
